A study of Mus musculus with 22 samples.

Results

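The response of the soleus to triiodothyronine (T3), the active thyroid hormone, was measured in mice labelled as knockouts of thyroid hormone receptor α1 (TRa1 KO). The comparison set 7 soleus RNA-seq libraries from TRa1 KO mice labelled as treated with T3 against 4 libraries from TRa1 KO mice given vehicle, 11 of the 22 libraries of the study. The libraries were assigned to these groups by their labels, and all 15082 genes that passed the filter on low counts, of 55487 in the deposited table, were described. The other 11 libraries, 5 from wild-type (WT) mice on vehicle and 6 from WT mice given T3, entered the shared estimate of spread and the test of whether the response differed between genotypes. All mice were labelled male, and both KO groups carry the same receptor loss, so the comparison shows the hormone response without that receptor and not the effect of the loss. The labels used here do not give the T3 dose, route or duration, the strain or age, the cells in which the receptor was lost, or whether each library came from 1 animal. The p-values therefore measure the spread between these libraries, some of which may be technical.

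T3 acts through nuclear receptors encoded by Thra and Thrb, which sit on DNA with or without hormone and switch from corepressors to coactivators when T3 binds. TRa1, the product of Thra, is the predominant T3 receptor of skeletal muscle, and TRβ is the other receptor through which the hormone can act. The soleus is a postural muscle rich in slow, oxidative fibres. In this muscle T3 is known to shift fibres from slow towards fast, to speed relaxation through the calcium pump of the sarcoplasmic reticulum (SERCA), and to raise energy turnover.

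Thyroid hormone receptors bind pairs of the hexamer AGGTCA, so the start sites of 5 genes on which the results below turn were read from RefSeq (GRCm38.p6), 250 bases before to 50 after the start, 5′ to 3′ on the gene's strand. Capitals mark every copy of AGGTCA or of its reverse complement TGACCT. Pln and Foxo6os, which moved in opposite directions with T3, have none in this window. Klhl33 has 1 at the upstream of its 2 start sites, which is shown, and none at the other. The overlapping antisense pair Igf2r and Airn have 1 each.
Pln, chr10:53337436-53337735, plus strand: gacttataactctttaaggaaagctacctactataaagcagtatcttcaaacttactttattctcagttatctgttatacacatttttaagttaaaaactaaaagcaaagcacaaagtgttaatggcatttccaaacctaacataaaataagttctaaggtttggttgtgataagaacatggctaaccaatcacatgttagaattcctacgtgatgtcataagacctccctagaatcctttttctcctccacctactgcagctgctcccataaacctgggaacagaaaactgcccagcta
Foxo6os, chr4:120290883-120291182, plus strand: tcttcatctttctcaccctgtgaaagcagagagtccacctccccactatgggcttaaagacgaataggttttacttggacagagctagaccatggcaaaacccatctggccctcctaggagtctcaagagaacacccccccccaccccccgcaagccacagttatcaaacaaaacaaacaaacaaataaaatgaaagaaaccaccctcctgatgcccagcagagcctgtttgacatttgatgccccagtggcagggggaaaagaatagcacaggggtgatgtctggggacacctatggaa
Klhl33, chr14:50897434-50897733, minus strand: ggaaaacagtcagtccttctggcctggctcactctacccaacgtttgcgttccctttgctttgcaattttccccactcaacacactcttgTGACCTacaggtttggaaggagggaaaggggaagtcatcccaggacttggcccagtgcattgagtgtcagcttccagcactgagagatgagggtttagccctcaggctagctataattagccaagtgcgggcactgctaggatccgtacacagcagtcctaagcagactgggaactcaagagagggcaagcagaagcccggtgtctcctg
Igf2r, chr17:12769657-12769956, minus strand: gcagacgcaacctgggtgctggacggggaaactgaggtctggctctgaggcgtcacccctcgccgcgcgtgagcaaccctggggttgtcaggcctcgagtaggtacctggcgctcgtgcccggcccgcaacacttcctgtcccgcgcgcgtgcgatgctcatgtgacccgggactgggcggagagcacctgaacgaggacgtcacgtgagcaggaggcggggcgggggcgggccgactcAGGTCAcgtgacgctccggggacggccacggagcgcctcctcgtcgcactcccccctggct
Airn, chr17:12741061-12741360, plus strand: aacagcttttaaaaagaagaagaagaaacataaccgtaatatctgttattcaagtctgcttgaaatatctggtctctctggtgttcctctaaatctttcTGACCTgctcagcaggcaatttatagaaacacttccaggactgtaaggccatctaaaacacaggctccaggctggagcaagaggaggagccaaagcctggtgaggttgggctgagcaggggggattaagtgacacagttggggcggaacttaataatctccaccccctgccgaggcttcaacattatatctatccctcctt

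Of all 32851 promoter windows of that length, 16.3% held the hexamer on either strand, and of the 14079 windows of genes tested here 12.9% did. Only 10976 of the 15082 genes tested matched a window, so the second share describes those genes alone. A pair of copies on 1 strand spaced by 4 bases, the arrangement known as a classical T3 response element, was found in 5 of all windows (0.0152%). It was found in 2 windows of genes tested. At that rarity, its absence from the windows of genes called below says nothing about those genes. A share for the responding genes is not compared, because only 33 of 43 higher and 30 of 41 lower genes of the repeated calls defined below matched a window, under the 80% needed. A match describes letters only, and its absence says nothing about binding elsewhere.

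The KO libraries held 18166907 to 75766782 counts, and 13.2% to 24.4% of them fell on mitochondrial genes. Summed markers of skeletal muscle fibres took 70314 to 101732 CPM (counts scaled to library size) in each KO library, so the tissue label matched its markers. KO T3 replicates 2 and 3 stood apart from the other 9 KO libraries on the first principal component (30.8% of the variance), at 56.7 and 57.2 against -26.4 to 4.71. Their deviations from the mean correlated with the GC content of genes (r = -0.54 and -0.48 across genes), and KO T3 replicate 4 deviated the opposite way (r = 0.58). The counts of changed genes are therefore given with and without replicates 2 and 3. Values of Thra do not test the knockout here, because the deposited gene-level counts sum every transcript of the gene.

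Neither receptor gene passed the test of T3 against vehicle (edgeR's quasi-likelihood test, p-values adjusted by Benjamini-Hochberg over all genes tested, ± the SE). Thra was at 53.6, 48.3, 44.2 and 44.4 CPM with vehicle and 21.2 to 39.8 CPM (median 34.3) with T3. The groups did not overlap, yet the log2 fold change of -0.55 ± 0.20 (adjusted p = 0.188) was not called here or in any of 22 alternative analyses (lowest adjusted p 0.055). In WT libraries Thra stood at 70.8 to 90.6 CPM with vehicle and 19.3 to 58.9 CPM with T3. Thrb was at 37.8, 39.0, 20.1 and 37.0 CPM with vehicle, where replicate 3 stood below the rest, and at 23.9 to 45.0 CPM (median 35.6) with T3, a log2 fold change of 0.09 ± 0.18 (adjusted p = 0.907).

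In TRa1 KO soleus T3 changed 410 genes at an adjusted p below 0.05, 2.72% of those tested, with edgeR's quasi-likelihood test and Benjamini-Hochberg adjustment. The change was upward for 254 genes (1.68%) and downward for 156 (1.03%), and 109 higher and 53 lower genes moved at least 2-fold. Sarcolipin, phospholamban, carbonic anhydrases 2 and 3 and mitochondrial isocitrate dehydrogenase fell. The corepressor gene Hr, the hormone-inactivating deiodinase Dio3 and Foxo6os, an antisense-class RNA beside Foxo6, rose. The share of calls that were higher, 62.0%, was 76.6% with scaling by total counts, 48.5% with an offset for GC content and gene length, 52.4% with the KO libraries fitted alone and 52.2% without WT T3 replicate 5 in the shared spread. Without KO T3 replicates 2 and 3 the test called 266 genes, and leaving out single KO libraries gave 164 to 396. Of the called genes named below, 13 were not called without KO T3 replicates 2 and 3 (Hadh, Echs1, Slc16a1, Acaca, Ldb3, Pdp2, Klf9, Gpd2, Slc7a8, Oas2, Oasl2, Ighm and Adamts8, adjusted p 0.0557 to 0.124). The count was lowest without a vehicle library, with 233, 164, 245 and 200 calls without vehicle replicates 1, 2, 3 and 4.

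To describe genes whose call did not rest on 1 library, the text below uses 84 repeated calls (0.557% of genes tested). These were called with all libraries, without each KO library in turn and without KO T3 replicates 2 and 3 together, and averaged at least 5 CPM over the KO libraries. Of the 84, 43 were higher and 41 lower with T3, and 22 and 17 of them moved at least 2-fold. In 80 of the 84 the 4 vehicle and 7 T3 libraries did not overlap, as in 306 of the 410 calls and in 703 of all genes tested (4.66%), 415 of them above and 288 below vehicle. The smallest log2 fold change in either direction had a size of 0.40. Protein-coding genes made up 77 of them, 24 averaged at least 100 CPM, and 82 were called under each of the 22 alternatives run. The fits that define the repeated calls are among these alternatives, so passing those was fixed by the selection.

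**Figure D1:**
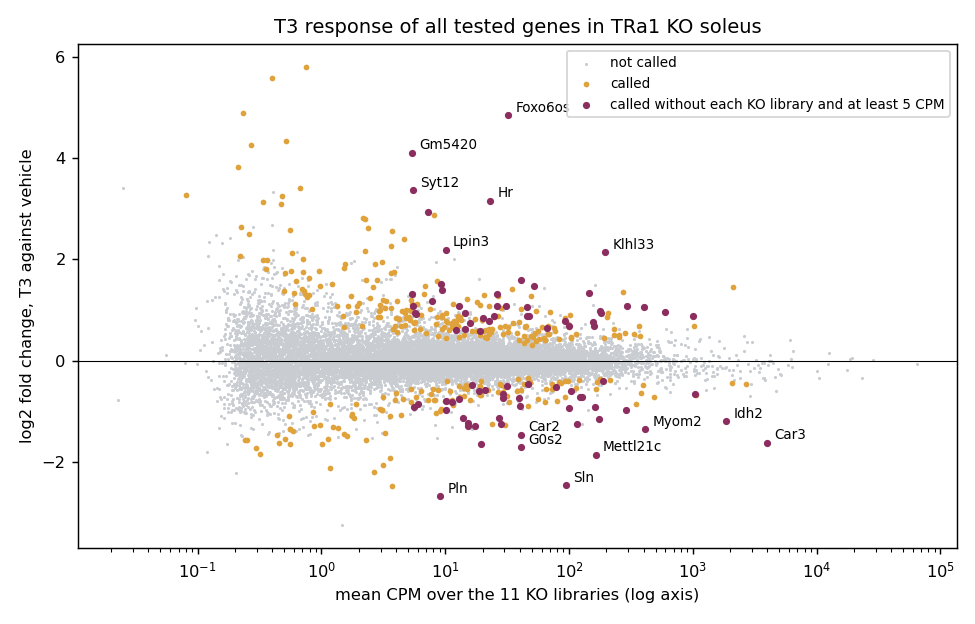
The log2 fold change of T3 over vehicle in TRa1 KO soleus (vertical axis) is plotted against mean CPM over the 11 KO libraries (horizontal log axis) for 15082 genes, with called genes and repeated calls coloured. The 254 higher and 156 lower calls include both scarce and abundant genes, and Car3 is the lower call farthest to the right.

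**Figure D2:**
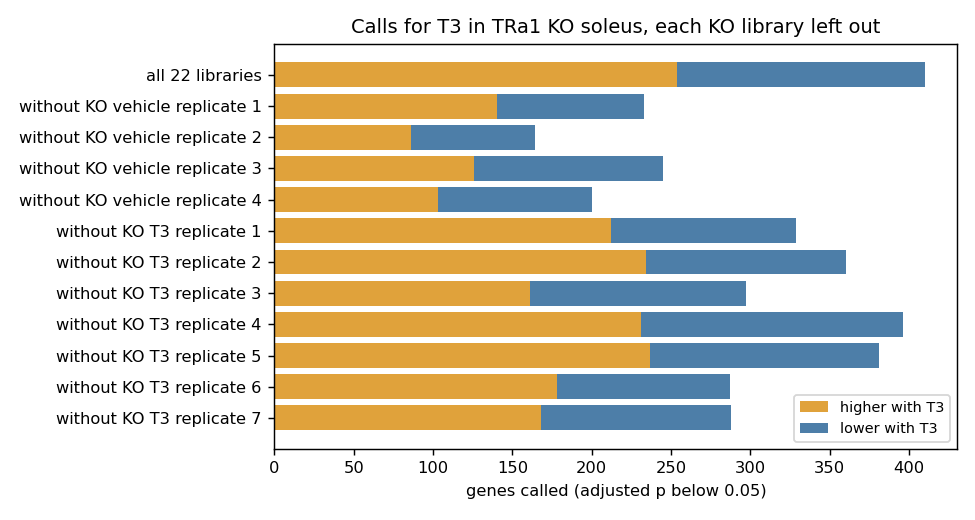
Bars give the number of genes called for T3 in TRa1 KO soleus with all 22 libraries and without each KO library in turn, split into higher and lower. The count of 410 drops to between 164 and 245 without 1 vehicle library and to between 287 and 396 without 1 T3 library.

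Of the regulators of the calcium pump, phospholamban and sarcolipin fell. Phospholamban (Pln, mm10 coordinates 10:53337667-53345593 as deposited), a small membrane protein that lowers the calcium affinity of SERCA, stood at 21.2, 21.3, 9.28 and 26.8 CPM in the 4 vehicle libraries and at 1.18 to 6.70 CPM (median 2.64) in the T3 libraries. Every T3 library was below every vehicle library, and vehicle replicate 3 was the lowest of its group. The log2 fold change was -2.67 ± 0.41 (SE, adjusted p = 0.000408). Sarcolipin (Sln, 9:53850164-53854560), the related regulator that uncouples calcium transport from ATP use, went from 135, 162, 298 and 193 CPM to 25.6 to 58.0 CPM (median 32.0). Here vehicle replicate 3 was the highest, the groups again did not overlap, and the log2 fold change was -2.46 ± 0.32 (adjusted p = 5.7e-05). Of the 11 SERCA pump and regulator genes tested, 3 fell and none rose, beside 1.03% lower and 1.68% higher of all genes tested, and the list's median was 0.16 against 0.02 over all genes. Myoregulin (Mrln), another small inhibitor of the pump, had a log2 fold change of 0.47 ± 0.28 (adjusted p = 0.51) and was not called. The pumps themselves were not called, at a log2 fold change of 0.41 ± 0.22 for Atp2a1, the fast-fibre pump, and 0.16 ± 0.15 for Atp2a2, the slow-fibre pump.

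The other member that fell was Casq2, the slow-fibre and cardiac calsequestrin that binds calcium inside the reticulum, from 568, 557, 778 and 677 CPM to 289 to 544 CPM (median 367), with no overlap. Its log2 fold change was -0.71 ± 0.18 (adjusted p = 0.0351), and the call was lost without any of the 4 vehicle replicates or T3 replicates 1, 4, 6 or 7 (adjusted p 0.0549 to 0.128).

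**Figure D3:**
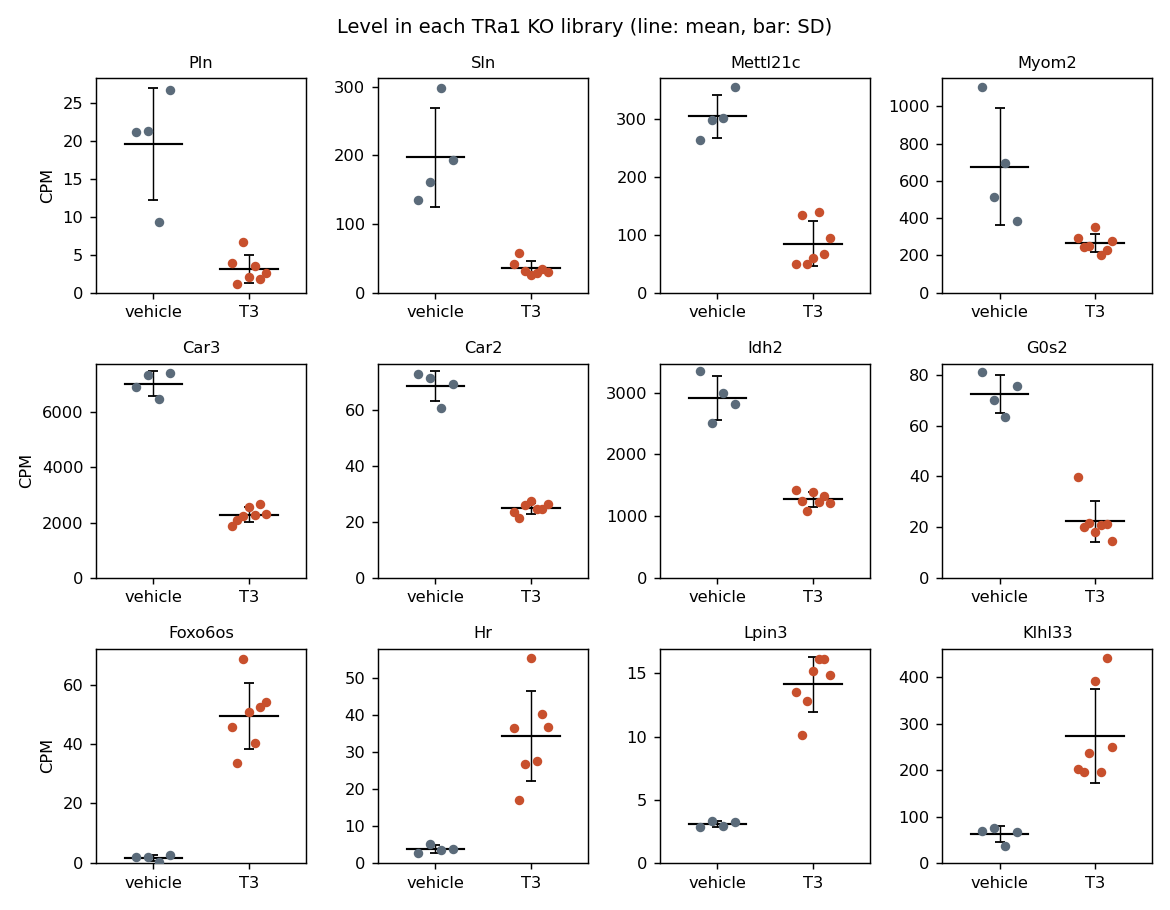
CPM of 12 genes in every TRa1 KO library is shown by group on axes that start at 0, each point a library, with the mean as a line and its SD as a bar. The T3 and vehicle points do not overlap for any of the 12 genes, with Pln, Sln, Mettl21c, Myom2, Car3, Car2, Idh2 and G0s2 lower and Foxo6os, Hr, Lpin3 and Klhl33 higher with T3. The 12 were picked from the 84 repeated calls, of which 80 did not overlap, against 4.66% of all genes tested.

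Among the genes of the contractile apparatus few passed the test. They are given after Mettl21c, which encodes an enzyme and is not a contractile gene. Mettl21c (1:44009408-44020006), a protein lysine methyltransferase of muscle fibres, stood at 264, 299, 301 and 354 CPM in vehicle and at 48.8 to 139 CPM (median 66.1) in T3 libraries. Its groups did not overlap, T3 replicates 2 and 5 were the highest of their group, and the log2 fold change was -1.85 ± 0.39 (adjusted p = 0.00939). Myom2, which encodes the M-protein that links thick filaments at the M-band, went from 1105, 516, 696 and 385 CPM to 202 to 351 CPM (median 252), with no overlap and a log2 fold change of -1.35 ± 0.19 (adjusted p = 0.000193). The M-band and Z-disc list had 2 of 20 members lower, none higher and a median of -0.33, beside 1.03% lower and 1.68% higher of all genes tested. The other member, Ldb3, a Z-disc scaffold, had a log2 fold change of -0.44 ± 0.11 (adjusted p = 0.0391), and its call was lost without vehicle replicates 1 or 3 or T3 replicates 2, 3 or 6 (adjusted p 0.054 to 0.196).

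Of the 4 myosin heavy chains that mark fibre types, 1 passed the test. Myh1, the fast IIx chain, was at 965, 1067, 1021 and 939 CPM in vehicle and at 804 to 5328 CPM (median 2349.7) in T3 libraries. The log2 fold change was 1.46 ± 0.39 (adjusted p = 0.0468), and the call was lost without any vehicle replicate or T3 replicates 1, 3, 4, 6 or 7 (adjusted p 0.0581 to 0.141). The slow chain Myh7 had a log2 fold change of -0.34 ± 0.21, the IIa chain Myh2 -0.70 ± 0.27 and the IIb chain Myh4 0.57 ± 1.33, none of them called. The value of Myh4 ran from 0.02 without T3 replicate 2 to 4.87 without vehicle replicate 2, and was 2.29 by limma voom, with no call in any alternative. Slow-fibre contractile genes had 2 of 16 members lower, Pln and Casq2, which are also in the SERCA list. Fast-fibre genes had 1 of 15 higher, with a median of 0.41. Of all genes tested, 1.03% were lower and 1.68% higher. In bulk muscle, fewer fibres of a type and less RNA per fibre cannot be told apart.

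Of 14 genes of carbonic anhydrases and acid-base transport, 4 fell and none rose, beside 1.03% lower and 1.68% higher of all genes tested. Car3 (3:14863512-14872069), the cytosolic carbonic anhydrase typical of slow fibres, stood at 6905, 7339.9, 6461 and 7418 CPM with vehicle and at 1861 to 2672 CPM (median 2259) with T3, a log2 fold change of -1.62 ± 0.15 (adjusted p = 5.5e-07). Per gene length it went from 2454 to 797 RPKM, the highest level among the repeated calls. Its neighbour Car2 (3:14886273-14900770), a faster isoform of the same enzyme, went from 73.1, 71.5, 61.0 and 69.3 CPM to 21.5 to 27.7 CPM (median 24.7). Both groups of Car2 were tight and did not overlap, and the log2 fold change was -1.46 ± 0.10 (adjusted p = 1.2e-09). Slc4a3, a chloride and bicarbonate exchanger of the fibre membrane, went from 24.7, 27.3, 54.7 and 31.3 CPM to 6.18 to 16.9 CPM (median 11.9), at a log2 fold change of -1.64 ± 0.30 (adjusted p = 0.00285).

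With Slc16a1, the lactate carrier MCT1 (log2 fold change -0.43 ± 0.11, adjusted p = 0.0362), these were the 4 members that fell, and 5 of the 14 had a log2 fold change above 0. The Slc16a1 call was lost without vehicle replicates 2 or 4 or T3 replicates 1, 2 or 4 (adjusted p 0.0515 to 0.16). The list's median was -0.33, and its summed level, mostly Car3, was 6891 to 7901 CPM in vehicle libraries against 2139 to 3024 CPM in T3 libraries.

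Among mitochondrial substrate enzymes a few fell. Most genes of their pathways, like most of all genes tested, did not pass the test. Idh2 (7:80094846-80115392), the mitochondrial NADP-linked isocitrate dehydrogenase, stood at 3359, 2502, 2989 and 2815 CPM with vehicle and 1082 to 1429 CPM (median 1245) with T3, with no overlap and a log2 fold change of -1.20 ± 0.13 (adjusted p = 8.4e-06). Its cytosolic counterpart Idh1 moved the opposite way, from 17.8, 21.0, 17.9 and 15.6 CPM to 29.7 to 48.4 CPM (median 39.0), a log2 fold change of 1.09 ± 0.14 (adjusted p = 3.7e-05). Per gene length Idh2 went from 1127 to 492 RPKM and Idh1 from 6.53 to 13.9 RPKM, so Idh2 remained the more abundant with T3. Acss1, which makes acetyl-CoA from acetate in mitochondria, went from 259, 252, 331 and 241 CPM to 93.2 to 188 CPM (median 109) (-1.15 ± 0.17 on the log2 scale, adjusted p = 0.000408). Of 30 genes of the TCA cycle and pyruvate dehydrogenase, 1 fell, Idh2, and 1 rose, Pdp2. Of all genes tested, 1.03% were lower and 1.68% higher. Pdp2, a phosphatase that activates pyruvate dehydrogenase, had a log2 fold change of 0.74 ± 0.19 (adjusted p = 0.0314). The Pdp2 call was lost without vehicle replicates 1, 2 or 4 or T3 replicates 1, 3 or 6 (adjusted p 0.0514 to 0.155).

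No nuclear-encoded subunit of the respiratory chain passed edgeR's test, 0 of 36 in complex I and 0 of 43 in complexes II to V. At an unadjusted p below 0.05 there were 0 in complex I and 1, higher, in complexes II to V, beside 1289 higher (8.55%) and 768 lower (5.09%) of all genes tested. DESeq2 also called none in either list, and 1 member of complexes II to V was called higher with the GC and length offset, with the KO libraries alone and without WT T3 replicate 5. The medians were 0.05 and 0.00 against 0.02 over all genes, and neither sign held under every alternative.

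In fat metabolism 3 oxidation enzymes fell, and lipid-handling genes moved in both directions. Acadm, the medium-chain acyl-CoA dehydrogenase, went from 1522, 1277, 1210.3 and 1414 CPM to 726 to 999 CPM (median 873), with no overlap and a log2 fold change of -0.66 ± 0.12 (adjusted p = 0.00186). It was 1 of 3 members of 25 in the fatty acid oxidation list that fell, beside 1.03% lower of all genes tested. A log2 fold change below 0 was found in 23 of the 25, and in 7051 of all 15082 genes tested. The list's median was -0.30 against 0.02 over all genes. The other 2 calls, Hadh (-0.48 ± 0.12, adjusted p = 0.0293) and Echs1 (-0.36 ± 0.10, adjusted p = 0.0498), which act on the hydroxyacyl and enoyl intermediates, were lost more easily. Hadh was not called without vehicle replicates 1, 2 or 4 or T3 replicates 1 or 2 (adjusted p 0.0509 to 0.105). Echs1 was not called without any vehicle replicate or T3 replicates 1, 2, 3, 5 or 7 (adjusted p 0.0528 to 0.12). The count of lower members was 1 without vehicle replicates 1 or 4 or T3 replicates 1 or 2, 6 without T3 replicate 4 and 9 with the GC and length offset.

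G0s2, a peptide that inhibits the triglyceride lipase ATGL, went from 81.1, 70.2, 63.6 and 75.5 CPM to 14.6 to 39.9 CPM (median 20.9), a log2 fold change of -1.70 ± 0.34 (adjusted p = 0.00661). T3 replicate 1, at 39.9 CPM, was the highest of its group and still below every vehicle library. Lpin3 (2:160880670-160905997), a phosphatidate phosphatase of glycerolipid synthesis, went from 2.86, 3.35, 2.89 and 3.26 CPM to 10.1 to 16.2 CPM (median 14.9). The T3 libraries were all at least as high as 10.1 CPM, far above the narrow vehicle group, at a log2 fold change of 2.19 ± 0.14 (adjusted p = 1.2e-09). Its paralogue Lpin1, the main muscle form, rose less (0.86 ± 0.19, adjusted p = 0.0127), and that call was lost without vehicle replicates 3 or 4 (adjusted p 0.0746 and 0.0639). Lipid synthesis, storage and lipolysis genes had 3 of 33 higher and 3 lower, with a median of 0.01, beside 1.03% lower and 1.68% higher of all genes tested.

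The remaining 2 of those 6 calls were Mlxipl, the carbohydrate-responsive factor ChREBP (0.59 ± 0.14, adjusted p = 0.0238), and Acaca, acetyl-CoA carboxylase (-0.53 ± 0.14, adjusted p = 0.0435). The Mlxipl call was lost without vehicle replicates 2, 3 or 4 (adjusted p 0.0926 to 0.131). The Acaca call was lost without vehicle replicates 1, 2 or 3 or T3 replicates 2, 4, 5, 6 or 7 (adjusted p 0.0531 to 0.227).

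A few genes of sugar and amino acid metabolism rose. Of 34 genes of glycolysis and glycogen metabolism, 3 rose and none fell, beside 1.68% higher and 1.03% lower of all genes tested. The count was 1 without vehicle replicate 2. The list's log2 fold changes ran from -0.39 to 2.95 with a median of 0.12, and not every member is described here. Ugp2, which makes UDP-glucose for glycogen, rose by 0.70 ± 0.14 on the log2 scale (adjusted p = 0.00612), a call lost without vehicle replicate 2 (adjusted p 0.0536). Pfkfb4, which sets fructose 2,6-bisphosphate, rose by 0.86 ± 0.23 (adjusted p = 0.0448) and was not called without any vehicle replicate or T3 replicates 2, 4, 6 or 7 (adjusted p 0.0733 to 0.182).

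Gpt2, the mitochondrial alanine aminotransferase, went from 22.9, 31.0, 18.9 and 23.6 CPM to 45.5 to 95.1 CPM (median 69.0), with no overlap and a log2 fold change of 1.49 ± 0.31 (adjusted p = 0.00939). Slc1a1, a glutamate transporter, went from 4.32, 4.45, 4.35 and 3.71 CPM to 8.96 to 25.3 CPM (median 10.2) (1.52 ± 0.27, adjusted p = 0.00189). T3 replicate 2 held the highest value, and the other 6 T3 libraries were still above every vehicle library.

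Genes that handle the hormone or are known to answer it also rose. Hr (14:70552212-70572900), a corepressor that binds thyroid hormone receptors and is a textbook T3 target, stood at 2.71, 5.23, 3.57 and 3.82 CPM with vehicle and 17.0 to 55.2 CPM (median 36.4) with T3. The groups were far apart, and the log2 fold change was 3.16 ± 0.44 (adjusted p = 0.000167). Dio3, the deiodinase that inactivates T3, had 1, 2, 1 and 2 raw counts in the 4 vehicle libraries and 27, 11, 10, 17, 11, 42 and 22 in the T3 libraries. With 6 counts over the vehicle libraries and 140 over the T3 libraries, the ratio of depth-scaled rates was 8.90 (95% interval 3.99 to 24.7, for counting error only), and the fitted log2 fold change was 3.14 ± 0.58 (adjusted p = 0.00285). At this depth Dio3 was near the limit of detection with vehicle, and its call held in the 21 alternatives that tested it.

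Of 11 textbook T3-induced genes, 3 rose, Hr, Klf9 and Gpd2, beside 1.68% higher of all genes tested. The list's median was 0.43 against 0.02 over all genes. Its count of higher members was 1 without vehicle replicates 1 or 4, T3 replicates 6 or 7, or T3 replicates 2 and 3 together. Klf9, a transcription factor induced by T3 in many tissues, rose by 0.51 ± 0.13 (adjusted p = 0.0298), a call lost without any vehicle replicate or T3 replicates 6 or 7 (adjusted p 0.0591 to 0.156). Gpd2, the mitochondrial glycerol phosphate dehydrogenase of the T3-responsive redox shuttle, rose by 1.15 ± 0.28 (adjusted p = 0.0275), a call lost without vehicle replicates 1, 3 or 4 or T3 replicates 6 or 7 (adjusted p 0.0536 to 0.123). Ucp3, the muscle uncoupling protein (0.65 ± 0.33), and Ppargc1a, the mitochondrial biogenesis coactivator (-0.14 ± 0.25), were not called. Of 8 transport and deiodination genes 2 rose, Dio3 and Slc7a8, beside 1.68% higher of all genes tested. Slc7a8, an amino acid carrier that also moves thyroid hormone, had a log2 fold change of 1.25 ± 0.34 (adjusted p = 0.0496). It was not called without any vehicle replicate or T3 replicates 1, 2, 3, 4 or 6 (adjusted p 0.0608 to 0.186).

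**Figure D4:**
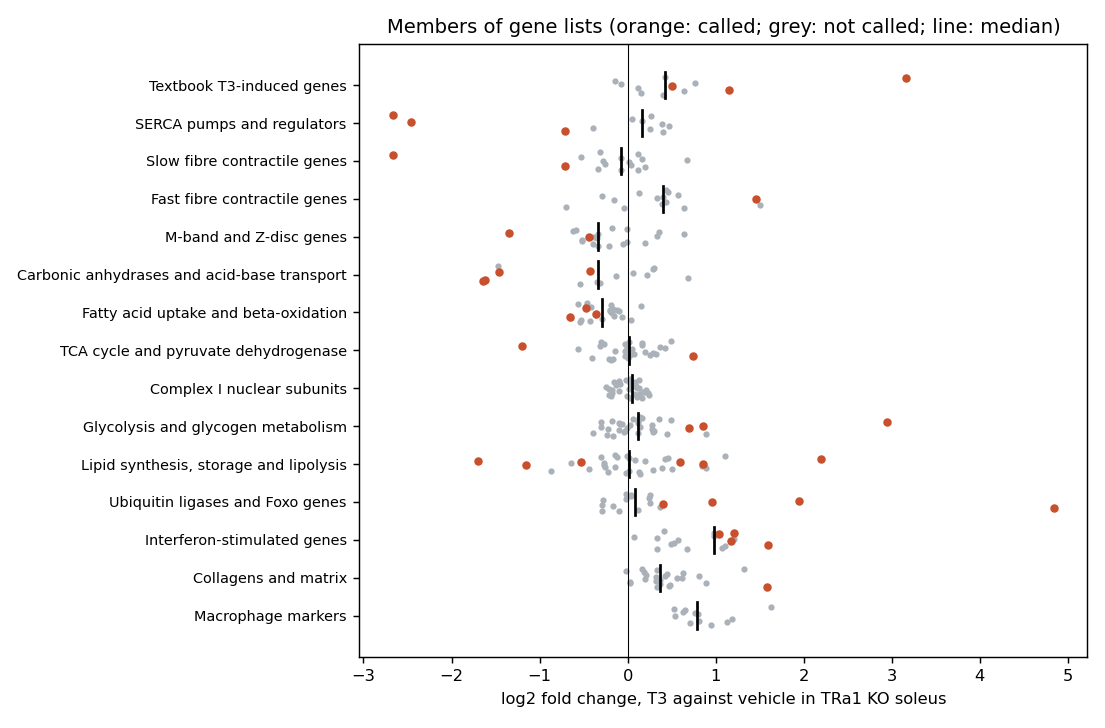
The log2 fold change of T3 over vehicle in TRa1 KO soleus is plotted for each member of 15 gene lists, orange where called and grey where not, with a line at each list's median. Called members number 4 in the carbonic anhydrase, ubiquitin ligase and interferon lists and 0 among complex I subunits and macrophage markers. The share called over all genes tested was 2.72%.

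Among the repeated calls the highest folds belonged to RNAs that were scarce with vehicle. Foxo6os (4:120291350-120303892), an antisense-class RNA beside the forkhead gene Foxo6, was at 1.90, 2.08, 0.357 and 2.50 CPM with vehicle and at 33.7 to 68.7 CPM (median 50.9) with T3. Raw counts were 52, 59, 10 and 72 in vehicle libraries against 968 to 4528 in T3 libraries, and the log2 fold change was 4.85 ± 0.33 (adjusted p = 1.2e-09). Foxo6 itself (4:120267079-120287349), on the opposite strand and not overlapping the annotated span of Foxo6os, went from 1.54, 1.59, 0.500 and 0.729 CPM to 0.800 to 9.63 CPM (median 3.59). Its log2 fold change of 1.94 ± 0.47 (adjusted p = 0.0263) was not called without vehicle replicates 2, 3 or 4 (adjusted p 0.051 to 0.107), by limma voom or with the KO libraries alone. Gm5420 (10:21686411-21707440), a lincRNA model of no stated function, went from 0.440, 0.848, 0.250 and 0.347 CPM to 4.35 to 11.3 CPM (median 8.01), a log2 fold change of 4.10 ± 0.28 (adjusted p = 1.2e-09). T3 replicate 5 was the lowest of its group and still above every vehicle library. Syt12, a synaptotagmin of vesicle release, went from 0.586, 0.671, 1.18 and 0.694 CPM to 4.98 to 17.6 CPM (median 6.77) (3.37 ± 0.36, adjusted p = 6.7e-06), with T3 replicate 2 the highest.

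In the list of ubiquitin ligases and Foxo genes, 4 of 18 members rose, Foxo6os and Foxo6 among them, and none fell. The shares over all genes tested were 1.68% higher and 1.03% lower. Trim63, the muscle atrophy ligase MuRF1, went from 109, 122, 179.9 and 104 CPM to 137 to 357 CPM (median 267). Its groups overlapped, its log2 fold change was 0.95 ± 0.22 (adjusted p = 0.0194), and the call was lost without vehicle replicates 1, 2 or 4 (adjusted p 0.0757 to 0.0946). Mdm2, the ligase for p53, rose by 0.40 ± 0.08 (adjusted p = 0.00986), a call lost without vehicle replicates 2 or 3 (adjusted p 0.0677 and 0.0873). The count of higher members was 1 without vehicle replicate 2 and 2 without vehicle replicates 3 or 4.

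Several genes of signalling and cell structure were among the repeated calls with the widest changes. Klhl33 (14:50888582-50897456), a kelch-domain protein of the family that recruits substrates to ubiquitin ligases, went from 68.4, 74.8, 37.5 and 67.6 CPM to 196 to 442 CPM (median 236). Vehicle replicate 3 was the lowest, the groups were separate, and the log2 fold change was 2.14 ± 0.28 (adjusted p = 8.4e-05). Fzd4, a Wnt receptor, went from 70.7, 83.6, 71.7 and 69.7 CPM to 147 to 238 CPM (median 183) (1.34 ± 0.18, adjusted p = 0.000117). Dkk2, a secreted regulator of Wnt coreceptors, went the other way, from 189, 214, 142 and 184 CPM to 56.9 to 101 CPM (median 75.0) (-1.25 ± 0.22, adjusted p = 0.00223). Both genes had groups that did not overlap. Rp1, a microtubule-associated protein known from photoreceptors, went from 18.0, 12.2, 25.7 and 15.7 CPM to 39.7 to 64.6 CPM (median 55.1) (1.60 ± 0.18, adjusted p = 9.7e-06).

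A further 8 repeated calls with wide changes had separate groups as well. Higher with T3 were the zinc transporter gene Slc30a2 (3.25 to 6.15 CPM against 9.74 to 16.9 CPM, log2 fold change 1.39 ± 0.19), the Cdc42 exchange factor gene Fgd3 (1.32 ± 0.15), the phosphatase inhibitor gene Ppp1r14c (1.31 ± 0.25) and Nudt18 (1.19 ± 0.22). Lower with T3 were the cullin gene Cul7 (-1.29 ± 0.19), the inositol monophosphatase gene Impa2 (-1.28 ± 0.17), the ESCRT-III subunit gene Chmp4c (-1.24 ± 0.19) and the membrane collagen gene Col23a1 (19.6 to 26.8 CPM against 8.30 to 11.5 CPM, -1.22 ± 0.14). The adjusted p of these 8 genes ran from 1.5e-05 to 0.00484. Below 5 CPM, the immediate early gene Arc had 50 raw counts over the vehicle and 947 over the T3 libraries (log2 fold change 2.82 ± 0.57, adjusted p = 0.00661), a call that limma voom did not make. Gnb3, a G protein β subunit, stood at 0.403 to 0.636 CPM with vehicle and 1.27 to 2.76 CPM with T3 (1.91 ± 0.23, adjusted p = 2.9e-05).

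Among abundant repeated calls, Rcan1, an inhibitor of calcineurin, went from 78.1 to 162 RPKM (means per gene length), a log2 fold change of 1.06 ± 0.19 (adjusted p = 0.00211). Fndc5, the membrane precursor of irisin, went from 62.9 to 132 RPKM (1.07 ± 0.21, adjusted p = 0.00531). Lynx1, a GPI-anchored modulator of acetylcholine receptors, went from 80.1 to 157 RPKM (0.97 ± 0.14, adjusted p = 0.000193). Trp53inp2, an autophagy factor, went from 124 to 228 RPKM (0.88 ± 0.14, adjusted p = 0.000925), and the lysosomal protease gene Ctsl had a log2 fold change of 0.68 ± 0.12 (adjusted p = 0.00251). In the downward direction Fxyd6, a regulator of the sodium pump, went from 103 to 52.1 RPKM (-0.98 ± 0.17, adjusted p = 0.00165), the one of these 7 genes whose vehicle and T3 libraries overlapped. Nqo1, a quinone reductase, went from 92.9 to 48.7 RPKM (-0.93 ± 0.13, adjusted p = 0.000225).

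Cry2, a repressor of the circadian clock, went from 103, 101, 88.6 and 93.9 CPM to 59.8 to 74.1 CPM (median 67.6). Its groups did not overlap, and the log2 fold change was -0.52 ± 0.10 (adjusted p = 0.00367). The labels give no hour of collection.

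Igf2r and Airn, chosen after their values were seen because they form an overlapping antisense pair, both fell. Igf2r (17:12682406-12769664), the mannose 6-phosphate and IGF2 receptor, went from 234, 213, 257 and 224 CPM to 105 to 142 CPM (median 123), a log2 fold change of -0.91 ± 0.16 (adjusted p = 0.00147). Airn (17:12741311-12860136), the antisense RNA known to silence Igf2r on the paternal chromosome, went from 6.30, 9.22, 8.38 and 8.23 CPM to 3.09 to 6.02 CPM (median 4.09), a log2 fold change of -0.92 ± 0.15 (adjusted p = 0.00112). Both had separate groups, and as their annotated spans overlap, reads of the shared stretch cannot be told apart, since how the counting treated strand is not given in the sources used here.

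Some interferon-stimulated genes and 1 gene of antibody-producing cells rose. Of 17 interferon-stimulated genes, 4 rose, beside 1.68% higher of all genes tested. All 17 had a log2 fold change above 0, and their median was 0.98. Their summed level was 58.6 to 91.1 CPM in vehicle and 79.2 to 156 CPM in T3 libraries, which overlap. Ifi44 rose by 1.60 ± 0.34 (adjusted p = 0.0101) but not without vehicle replicates 1 or 4 (adjusted p 0.0501 and 0.0547). Oasl2, Ifit1 and Oas2, which encode antiviral sensors and effectors, had log2 fold changes of 1.18, 1.21 and 1.03. All 4 calls were lost without vehicle replicates 1 or 4, and 1 remained without vehicle replicate 2 or T3 replicate 3 and 2 without T3 replicate 5.

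Macrophage markers had 0 of 12 called by edgeR or by DESeq2, 7 higher at an unadjusted p below 0.05 (8.55% of all genes tested were), all 12 above 0 and a median of 0.78. Their sums were 41.7 to 99.2 CPM in vehicle and 49.6 to 166 CPM in T3 libraries. Of 11 B and plasma cell markers 4 were tested, with a median of 0.41, and Ighm, the immunoglobulin M heavy chain, rose by 2.88 ± 0.76 (adjusted p = 0.0411), a call lost without any vehicle replicate or T3 replicates 3, 4, 6 or 7 (adjusted p 0.0547 to 0.139). The B and plasma cell sum was 2.89 to 4.41 CPM in vehicle against 8.93 to 23.3 CPM in T3 libraries, with no overlap. This sum covers only the 4 members tested, with Ighm the only one called, so it does not separate the cell type from that gene. The other 3 were not called, at log2 fold changes of -0.76 for the light chain gene Igkc, 0.00 for the plasma cell chaperone gene Mzb1 and 0.82 for the heavy chain gene Ighg2c. Collagen and matrix genes had 1 of 24 higher, the protease gene Adamts8 (1.58 ± 0.42, adjusted p = 0.0422), and 23 above 0 with a median of 0.37, beside 1.68% higher of all genes tested. The Adamts8 call was lost without any vehicle replicate or T3 replicates 1, 3, 4, 6 or 7 (adjusted p 0.0535 to 0.151). Fibroblast and adipogenic progenitor markers had 0 of 12 called by edgeR or by DESeq2, 2 higher at an unadjusted p below 0.05, all 12 above 0 and a median of 0.26. Tendon markers had 0 of 7 called by edgeR or by DESeq2, 1 higher at an unadjusted p below 0.05, 6 above 0 and a median of 0.81. Their sums were 572 to 1038 and 42.5 to 152 CPM in vehicle against 781 to 1202 and 54.5 to 265 CPM in T3 libraries. Erythroid markers had a median of -1.27 that became 1.27 without vehicle replicate 3, whose sum was 987 CPM. None of the T cell markers listed passed the filter on low counts. Smooth muscle and pericyte markers had 0 of 9 called by edgeR, 6 lower at an unadjusted p below 0.05 (5.09% of all genes tested were) and all 9 below 0, with a median of -0.42, and DESeq2, the GC and length offset, the KO libraries alone and the fits without WT T3 replicate 5 or vehicle replicate 3 each called 1 of them lower. The part of these cells in the values of the other genes was not tested.

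Whether the hormone response of KO soleus differed from that of WT soleus was tested as the difference between the T3 effects. A single gene passed, Foxo6os, 0.00663% of genes tested, while 371 genes had an unadjusted p below 0.05. In WT libraries Foxo6os stood at 18.5 to 37.3 CPM with vehicle and 113 to 168 CPM with T3, so the KO vehicle level was the lowest of the 4 groups and the KO T3 level remained below the WT T3 range. The log2 fold change was 4.85 ± 0.33 in KO and 2.40 ± 0.25 in WT, a difference of 2.44 ± 0.37 (95% interval 1.66 to 3.23, adjusted p = 0.0164). The call was lost without KO vehicle replicate 1 (adjusted p = 0.0645).

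Gm5420 stood at 2.56 to 3.25 CPM with vehicle and 10.8 to 16.5 CPM with T3 in WT, and its difference of 1.93 ± 0.34 did not pass (adjusted p = 0.0568). The difference passed without KO vehicle replicate 2 (0.00515) or KO T3 replicate 5 (0.00744), with no filter (0.0169), by DESeq2 (0.000147) and with the GC and length offset (0.0239). It did not pass in any other alternative that tested it. The adjusted p was 0.533 by limma voom and 0.291, 0.36 and 0.424 without KO vehicle replicates 1, 3 and 4. Mettl21c ran from 32.2 to 117 CPM with vehicle to 0.881 to 7.64 CPM with T3 in WT, where the log2 fold change was -4.38 ± 0.44. The smaller fall in KO differed by 2.53 ± 0.58 (95% interval 1.31 to 3.75, adjusted p = 0.488). Idh2 ran from 1576 to 2708 CPM to 459.8 to 675 CPM in WT, a log2 fold change of -2.02 ± 0.13, and its difference of 0.83 ± 0.19 (95% interval 0.43 to 1.22) had an adjusted p of 0.488. These intervals exclude 0 gene by gene but the differences did not pass over all genes tested, which does not show that the responses were alike.

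For the other repeated calls the values of both genotypes lie side by side. All 84 had the same sign in WT, as did 69.9% of all genes tested, and 69 were also called there, 34 higher and 35 lower, where 3.31% of all genes tested were called. Of the 410 calls, 401 (97.8%) had the same sign in WT and 215 were called there in the same direction. The KO and WT comparisons share no library, although they share the estimate of spread. Pln had a log2 fold change of -2.67 in KO and -2.85 ± 0.45 in WT, Sln -2.46 and -2.69 ± 0.33, Car3 -1.62 and -1.63 ± 0.15, and Hr 3.16 and 2.46 ± 0.38. None of these 4 differences passed the test, with 95% intervals of -1.07 to 1.44, -0.72 to 1.19, -0.45 to 0.46 and -0.41 to 1.81.

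**Figure D5:**
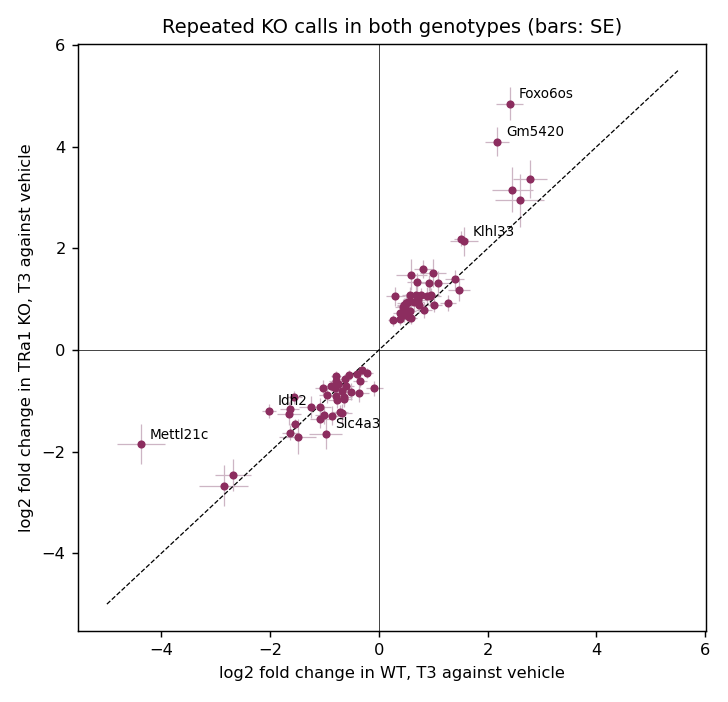
The log2 fold change of T3 over vehicle in TRa1 KO soleus is plotted against that in WT soleus for the 84 repeated KO calls, with SE bars and a dashed line of equal response. All 84 points share their sign, and Foxo6os and Gm5420 lie above the line and Mettl21c and Idh2 nearer to 0 in KO than in WT.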

How the data were processed

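Whole-soleus polyA RNA was sequenced as stranded paired-end libraries, per the labels' protocols. The build mm10 and the tools featureCounts 1.6.4, STAR 2.7.3a and edgeR 3.26.8 are named in the submitters' processing notes, without settings. How strand was set and which annotation was used is not given in the sources used here. Raw counts and a length for each gene are what the authors deposited, and every per-sample column matched a label, with 0 left over. From these counts edgeR 4.0.16 (R 4.3.3) fitted all 4 groups, 22 libraries, in 1 quasi-likelihood model with TMM scaling and 18 residual degrees of freedom. Genes were kept by filterByExpr (minimum count 10), p-values were adjusted by Benjamini-Hochberg over 15082 genes, and genes under an adjusted p of 0.05 were called. CPM were scaled by TMM, RPKM used the deposited gene length, and ± after a log2 fold change is its SE (median 0.19 over all genes tested). The script was tested on simulated data. Motifs were counted in RefSeq windows with Python 3.11.15.

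Genes named were the 15 repeated calls with the largest change in each direction, the 10 with the highest RPKM, called members of the lists with up to 2 uncalled, a followed set, the 6 smallest p for the difference and the 4 unnamed models with the largest change; not all of these are described, and some results are not reported here. The comparison, with its member libraries, and the gene lists were chosen with earlier results of these data known, and the labels alone put each library in its group. The alternatives tried were scaling by RLE, by the upper quartile or by total counts, no filter, at least 1 CPM in 4 libraries, DESeq2 1.42.0, limma 3.58.1 voom, an offset for GC content and length, the KO libraries alone, WT T3 replicate 5 left out, KO T3 replicates 2 and 3 left out, and each KO library left out.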

Additional observations from a re-analysis of the deposited data

Results flagged for a closer look

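Of 162 groups of 4 or 7 libraries tested for a library far from the rest (Dixon's 95% critical value, which chance passes in about 1 group in 20), 11 passed. In the vehicle group, replicate 3 was low for Foxo6os (0.357 CPM against 1.90 to 2.50 in the others), for Klhl33 (37.5 against 67.6 to 74.8 CPM) and for Thrb (20.1 against 37.0 to 39.0 CPM). Vehicle replicate 4 was low for Slc1a1 (3.71 against 4.32 to 4.45 CPM), and vehicle replicate 2 was high for Fzd4 (83.6 against 69.7 to 71.7 CPM). Among T3 libraries, replicate 2 was high for Syt12 (17.6 against 4.98 to 8.24 CPM) and for Slc1a1 (25.3 against 8.96 to 10.9 CPM). Replicate 1 was high for G0s2 (39.9 against 14.6 to 21.5 CPM) and for Mlxipl (91.0 against 55.2 to 64.1 CPM). Replicate 4 was high for Nudt18, a nudix hydrolase gene (13.3 against 8.52 to 10.2 CPM), and replicate 5 was low for Gm5420 (4.35 against 7.65 to 11.3 CPM). The genes Foxo6os, Klhl33, Slc1a1, Fzd4, Syt12, G0s2, Nudt18 and Gm5420 were called without each of these libraries.

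The T3 response of Foxo6os differed between genotypes by 2.44 on the log2 scale, the 1 gene whose difference passed the test.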

How the results depend on the processing

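Against 410 calls for T3 in KO soleus, DESeq2 gave 664, the GC and length offset 790, the fit without WT T3 replicate 5 696, and the fit without KO T3 replicates 2 and 3 266. Leaving out single KO libraries gave 164 to 396. Higher calls (254) were 383 with the offset, 154 without KO T3 replicates 2 and 3 and 86 to 237 leaving out single libraries. Lower calls (156) were 93 with total counts, 288 with DESeq2, 407 with the offset, 333 without WT T3 replicate 5 and 78 to 165 leaving out single libraries. For the difference of responses (1 gene), no filter gave 2, DESeq2 3 and the offset 2, with 0 to 2 leaving out single libraries. The causes were not tested. Of 68 called genes named here, 43 were called in every alternative that tested them, and none of the 68 reversed. With total counts Casq2, Hadh, Echs1, Slc16a1, Pfkfb4, Acaca and Ldb3 were not called. With limma voom Arc, Foxo6, Myh1, Oas2, Oasl2, Ifit1, Ighm, Adamts8, Slc7a8, Pfkfb4 and Acaca were not, and with no filter Hadh, Echs1, Klf9, Slc16a1, Acaca, Ldb3 and Mdm2 were not. RLE scaling lost Slc7a8 and the offset Acaca. With the KO libraries alone Foxo6, Myh1, Echs1, Trim63, Oas2, Oasl2, Ifit1, Slc16a1, Pfkfb4 and Ldb3 were not. Thrb, not called, turned to -0.11 without KO vehicle replicate 3 (up to 0.17 leaving out others). For Mzb1, T3 in KO soleus gave no call and a value near 0, at -0.0165 with RLE, -0.0040 with upper quartile scaling, -0.0198 with no filter, -0.0189 with DESeq2, -0.0110 with the offset, -0.0044 with the KO libraries alone, -0.0178 without WT T3 replicate 5 and -0.23 to 0.22 leaving out single KO libraries. No paired analysis was possible because the labels number the libraries across the whole study and the groups share no replicate numbers. At 4 against 7 libraries and a median SE of 0.19, small changes and low-count genes such as Dio3 are measured with little precision.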
